A study of Homo sapiens with 22 samples.

Results

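Cells of MDA-MB-231, a human breast cancer line of basal, mesenchymal type, were compared after METTL3-WT or METTL3-CD had been added back to cells carrying the agent labelled shM3. The samples were chosen by their labels alone and make up 4 of the 22 RNA-seq libraries of the series, 2 of shM3 cells with METTL3-WT added back (shM3_WT) and 2 of shM3 cells with METTL3-CD added back (shM3_CD). The shM3 cells without add-back and the cells labelled B5, with 2 libraries each, came in the same table and give the levels without add-back. All 8 libraries are labelled with a WT genotype and a time of 2 to 3 months, and the cells had been infected with lentivirus and grown in DMEM with serum. The labels do not spell out CD, B5 or shM3, and they do not say whether a line was 1 clone or a pool, or whether its 2 libraries came from separate cultures. P-values therefore measure the spread between these libraries, which may be technical.

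METTL3 is the catalytic subunit of the nuclear complex that writes N6-methyladenosine (m6A) into messenger RNA. It works with METTL14, which holds the RNA, and with WTAP, VIRMA, RBM15B, ZC3H13 and CBLL1, which place the complex. The mark is read by YTH and IGF2BP proteins, which alter the decay, splicing and translation of the transcript, and it is removed by FTO and ALKBH5. In immune and tumour cells loss of m6A has been linked to interferon signalling, cell division and cell identity. The series as a whole is about BET inhibition and the m6A writer complex. The comparison of the add-back groups asks which transcripts differ when METTL3 RNA is present at a high level in both.

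METTL3 itself, on hg38 chromosome 14, 21498133 to 21511375, minus strand, was measured at 312 and 311 FPKM in shM3_WT, against 277 and 270.5 FPKM in shM3_CD. In cells without add-back it stood at 4.39 and 4.805 FPKM in shM3 and 20.1 and 23.8 FPKM in B5. Both add-back groups were thus far above the B5 cells, and their libraries did not overlap, with shM3_WT the higher. A level per gene does not separate added from endogenous METTL3. The difference did not pass the threshold (log2 fold change 0.19 ± 0.09 SE, limma adjusted p = 0.18), and it did pass after scaling by TMM factors (limma adjusted p = 0.0496) or to equal medians (limma adjusted p = 0.046). Of the other writer subunits, METTL14 had 7.097 and 4.91 FPKM in shM3_WT, against 5.57 and 5.55 FPKM in shM3_CD, and VIRMA had 13.3 and 11.2 FPKM in shM3_WT, against 16.7 and 16.2 FPKM in shM3_CD. RBM15B was the only one of the 7 subunits tested to pass (-0.299, limma adjusted p = 0.045). It lost that call in 11 of 16 alternatives, TMM factors and the leaving out of any 1 of the 4 add-back libraries among them. RBM15 was below the filter on low values.

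Promoters of 5 genes are shown for the elements they hold, from 2 groups that differed in opposite directions and hold 69 and 39 of the 3785 genes called. The group of 39 includes IFIT1, IFIT3 and HERC5, interferon-stimulated genes that were lower in shM3_WT. The 250 bases before their start are shown from RefSeq (GRCh38.p14, plus strand), at chr10:89392373-89392622 for IFIT1, chr10:89327747-89327996 for IFIT3 and chr4:88456869-88457118 for HERC5. Capitals mark, on either strand, GAAA and GAAA with any 2 bases between them, the core of the interferon-stimulated response element bound by an interferon-activated factor that holds STAT2 and IRF9. In IFIT1 they begin 116 and 103 bases before the start, in IFIT3 156 and 122, and in HERC5 125, 119 and 74, where the first pair overlap.
IFIT1: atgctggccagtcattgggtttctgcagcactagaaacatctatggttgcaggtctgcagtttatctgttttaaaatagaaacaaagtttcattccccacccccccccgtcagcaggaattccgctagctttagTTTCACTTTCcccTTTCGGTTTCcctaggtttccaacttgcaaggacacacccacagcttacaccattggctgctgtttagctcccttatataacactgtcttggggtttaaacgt
IFIT3: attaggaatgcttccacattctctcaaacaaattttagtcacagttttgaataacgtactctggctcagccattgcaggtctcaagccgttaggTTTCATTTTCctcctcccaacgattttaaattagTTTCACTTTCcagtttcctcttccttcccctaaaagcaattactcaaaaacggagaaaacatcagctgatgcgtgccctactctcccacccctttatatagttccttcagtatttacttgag
HERC5: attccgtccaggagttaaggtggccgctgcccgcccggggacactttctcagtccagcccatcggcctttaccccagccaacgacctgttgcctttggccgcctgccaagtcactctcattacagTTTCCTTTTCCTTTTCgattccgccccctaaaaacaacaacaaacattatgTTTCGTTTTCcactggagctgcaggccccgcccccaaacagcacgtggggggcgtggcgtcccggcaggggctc
The group of 69 includes CDC20 and CDCA8, mitotic genes that were higher in shM3_WT, at chr1:43358731-43358980 and chr1:37692266-37692515 on the plus strand. Capitals mark TTTGAA, the cell cycle genes homology region through which the DREAM complex represses mitotic genes, and CCAAT, the site of NF-Y, each searched on both strands. They begin 178, 100, 65 and 55 bases before the start in CDC20 and 115, 75, 23 and 18 in CDCA8, where the last pair overlap.
CDC20: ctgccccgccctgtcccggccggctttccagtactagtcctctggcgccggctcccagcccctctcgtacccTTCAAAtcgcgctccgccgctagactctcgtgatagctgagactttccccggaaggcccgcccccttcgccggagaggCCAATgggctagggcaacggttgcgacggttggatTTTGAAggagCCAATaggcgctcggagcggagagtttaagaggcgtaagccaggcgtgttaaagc
CDCA8: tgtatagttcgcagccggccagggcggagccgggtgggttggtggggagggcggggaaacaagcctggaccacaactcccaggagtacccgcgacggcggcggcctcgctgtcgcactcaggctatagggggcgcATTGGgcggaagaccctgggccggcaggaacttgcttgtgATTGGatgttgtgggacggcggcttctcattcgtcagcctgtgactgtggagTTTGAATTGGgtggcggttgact

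Genes were tested where 2 or more of the 8 libraries reached 1 FPKM. Of these 14638 genes 3785 (25.9%) passed an adjusted p under 0.05 between shM3_WT and shM3_CD, 1494 of them higher in shM3_WT (10.2%) and 2291 lower (15.7%). FPKM sets the fragments of a gene against its length and its library's total, and fold changes are on the scale of log2(FPKM + 1), which understates the change of low genes. A further limit of 2-fold left 450 genes, 3.07% of those tested. The median fold change of all genes was -0.08, and under TMM factors or equal medians, which move it to 0.01, the split turned over to 2005 higher of 3530 calls (56.8%) and 2014 higher of 3515 calls (57.3%), against 39.5% as deposited. Leaving out shM3_WT replicate 1 gave 1955 calls, shM3_WT replicate 2 gave 1826, shM3_CD replicate 1 gave 1783 and shM3_CD replicate 2 gave 1781. Counts of list members below are read against the shares of all genes as deposited. List counts with TMM factors or with 1 library left out belong beside the counts of all genes in that setting. The counts of all genes also fell when 1 add-back library was left out. The libraries of the 2 groups did not overlap for 25.9% of genes with shM3_WT above and 40.7% with shM3_WT below.

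**Figure D1:**
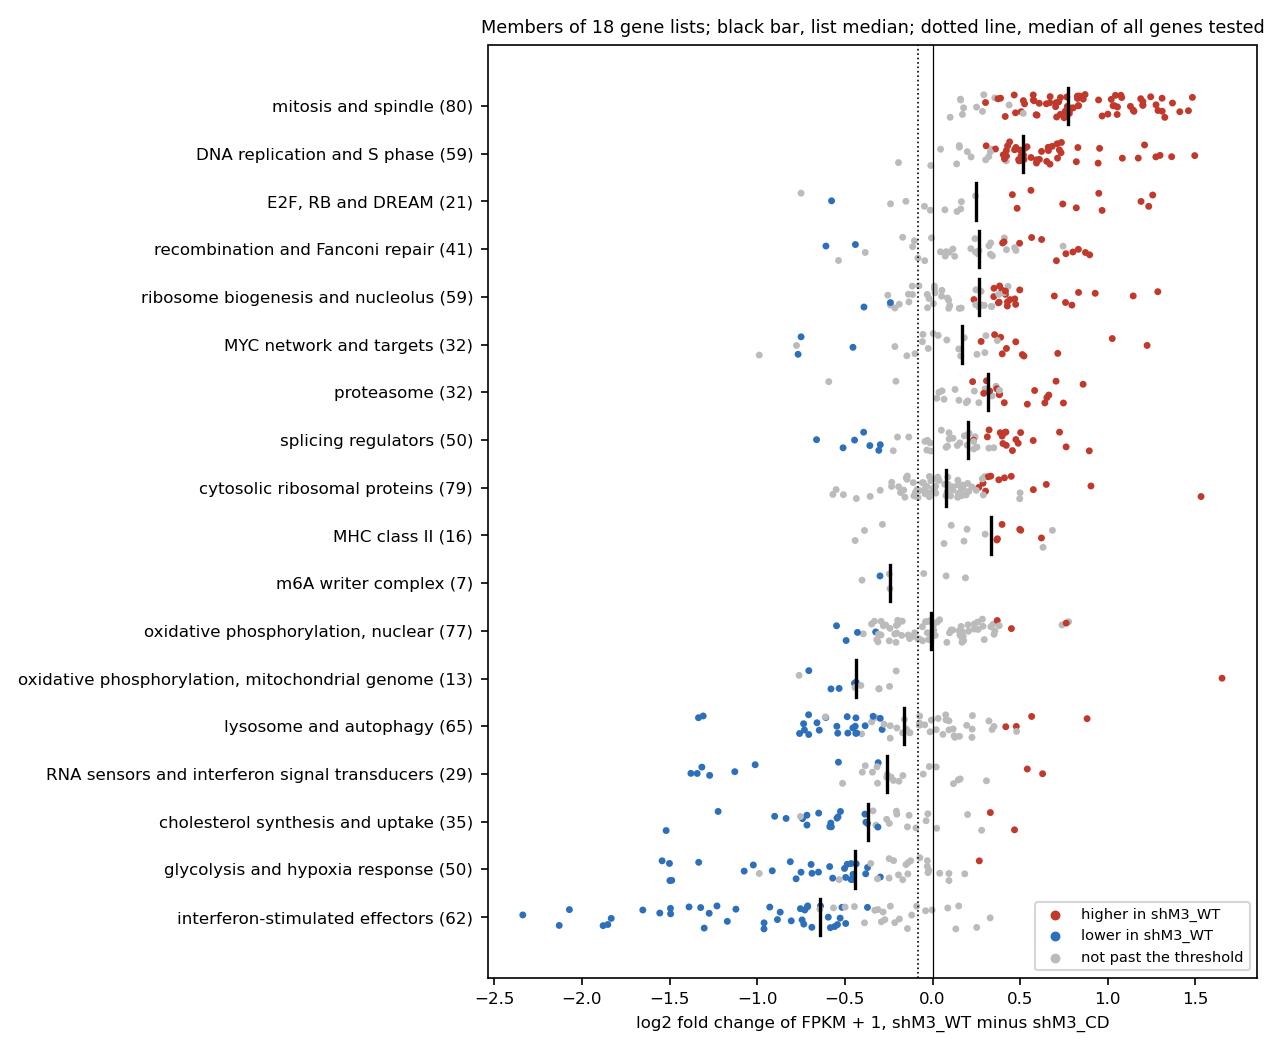
Log2 fold change of FPKM + 1 (x axis, shM3_WT minus shM3_CD) of every tested member of 18 gene lists, with the number tested in brackets; red and blue points passed the threshold, the bar is the list median and the dotted line the median of all genes. Mitosis (median 0.77) and S phase (0.52) lie to the right, interferon-stimulated effectors (-0.64), glycolysis and hypoxia (-0.44) and cholesterol (-0.37) to the left.

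Genes of cell division were higher in cells with METTL3-WT than in cells with METTL3-CD. Of 80 tested genes of mitosis and the spindle, 69 rose and none fell, with a median log2 fold change of 0.77, and 51 to 58 rose when 1 of the 4 add-back libraries was left out. In such bulk samples fewer dividing cells and less RNA per cell cannot be told apart. CDC20, the activator of the anaphase-promoting complex, had 257 and 252 FPKM in shM3_WT, against 105 and 103 FPKM in shM3_CD. The groups did not overlap, with a 2.45-fold difference (log2 fold change 1.29 ± 0.07 SE, limma adjusted p = 0.00022). Cyclin B1, the partner of CDK1 that drives entry into mitosis, is made from CCNB1, which had 178 and 179 FPKM in shM3_WT, against 84.2 and 87.05 FPKM in shM3_CD. The level in shM3_WT was also above the 92.6 and 91.8 FPKM of B5 cells, while shM3 cells without add-back had 46.3 and 49.8 FPKM. CCNA2, the cyclin of S phase and G2, was likewise above B5 (52.4 and 50.9 FPKM) in shM3_WT and below it in shM3_CD, with 85.9 and 83.7 FPKM in shM3_WT, against 40.8 and 38.7 FPKM in shM3_CD (log2 fold change 1.07 ± 0.07 SE, limma adjusted p = 0.00039).

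Spindle motors and assembly factors rose too. TPX2, which activates Aurora A on spindle microtubules, had 137 and 134 FPKM in shM3_WT, against 56.2 and 60.7 FPKM in shM3_CD, a 2.32-fold difference (limma adjusted p = 0.00031). The kinesins KIFC1, which focuses spindle poles, and KIF2C, which depolymerises microtubules at centromeres, rose by 1.37 and 1.31 on the log2 scale (limma adjusted p = 0.00037 and 0.00044). CDCA8, a subunit of the chromosomal passenger complex, had 76.2 and 69.7 FPKM in shM3_WT, against 26.8 and 24.9 FPKM in shM3_CD. B5 cells lay between the add-back groups with 36.1 and 31.98 FPKM, nearer to shM3_CD (log2 fold change 1.46 ± 0.10 SE, limma adjusted p = 0.00052). KIF18B, another mitotic kinesin, rose by 1.15 (limma adjusted p = 0.00049). All 80 fold changes of the list were above 0, and the libraries did not overlap for 78 of them.

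DNA replication genes moved the same way. Of 59 tested, 46 rose and none fell (median 0.52), and 22 to 28 rose without 1 of the 4 add-back libraries. TYMS, the thymidylate synthase that makes the DNA base precursor dTMP, had 97.98 and 99.4 FPKM in shM3_WT, against 41.1 and 43.2 FPKM in shM3_CD. Its shM3_WT level lay within the range of B5 or just below it (111 and 98.1 FPKM), shM3_CD was lower and shM3 the lowest (20.4 and 21.8 FPKM). RRM2, a ribonucleotide reductase subunit, had 79.5 and 72.9 FPKM in shM3_WT, against 27.1 and 34.00 FPKM in shM3_CD (log2 fold change 1.298 ± 0.12 SE, limma adjusted p = 0.0012). The licensing factor CDT1 and the helicase subunits GINS2 and MCM7 rose by 1.17, 1.496 and 0.67 on the log2 scale (limma adjusted p = 0.0013, 0.0013 and 0.0021). The sliding clamp PCNA had 113 and 122 FPKM in shM3_WT, against 67.02 and 64.9 FPKM in shM3_CD, and UHRF1, which guides maintenance of DNA methylation behind the fork, had 42.01 and 42.3 FPKM in shM3_WT, against 16.3 and 17.4 FPKM in shM3_CD.

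Regulators of these genes were among those that rose. E2F1, the factor that switches on S phase genes, had 40.2 and 37.9 FPKM in shM3_WT, against 15.7 and 17.5 FPKM in shM3_CD (log2 fold change 1.19 ± 0.10 SE, limma adjusted p = 0.00083), beside 42.8 and 37.7 FPKM in B5 and 9.12 and 9.98 FPKM in shM3. Its dimer partner TFDP1 rose by 1.26 and the mitotic activator MYBL2 by 0.74 (limma adjusted p = 0.0010 and 0.0014). The alternative partner TFDP2 fell (-0.58, limma adjusted p = 0.010), a call that was lost when shM3_WT replicate 1 or shM3_CD replicate 1 or shM3_CD replicate 2 was left out. In all, 10 of the 21 E2F, RB and DREAM genes tested rose and 1 fell, with 5 to 8 rising without 1 add-back library. The CDK inhibitors divided. CDKN1B (p27), which arrests cells in G1, had 8.86 and 9.43 FPKM in shM3_WT, against 17.8 and 18.9 FPKM in shM3_CD and fell (log2 fold change -0.93 ± 0.08 SE, limma adjusted p = 0.00095). CDKN1C (p57) fell as well (-1.31, limma adjusted p = 0.00057), while CDKN3, a phosphatase whose RNA peaks in dividing cells, rose by 1.17 (limma adjusted p = 0.00080). CDK6, the kinase of cyclin D, had 4.400 and 4.16 FPKM in shM3_WT, against 1.43 and 1.51 FPKM in shM3_CD and rose, but stayed below the 8.08 and 10.6 FPKM of B5. Of 16 genes of this list 6 rose and 3 fell.

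Repair by recombination is coupled to S phase, and 11 of its 41 genes rose, 7 to 9 without 1 add-back library and 17 with TMM factors. UBE2T, the ubiquitin-conjugating enzyme of the Fanconi pathway, had 66.3 and 74.1 FPKM in shM3_WT, against 38.2 and 36.1 FPKM in shM3_CD (log2 fold change 0.896 ± 0.10 SE, limma adjusted p = 0.0018), and RAD54L, a motor of strand exchange, rose by 0.87 (limma adjusted p = 0.0028). The kinase ATM fell, with 8.94 and 9.44 FPKM in shM3_WT, against 14.8 and 14.2 FPKM in shM3_CD (log2 fold change -0.61 ± 0.09 SE, limma adjusted p = 0.0041).

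**Figure D2:**
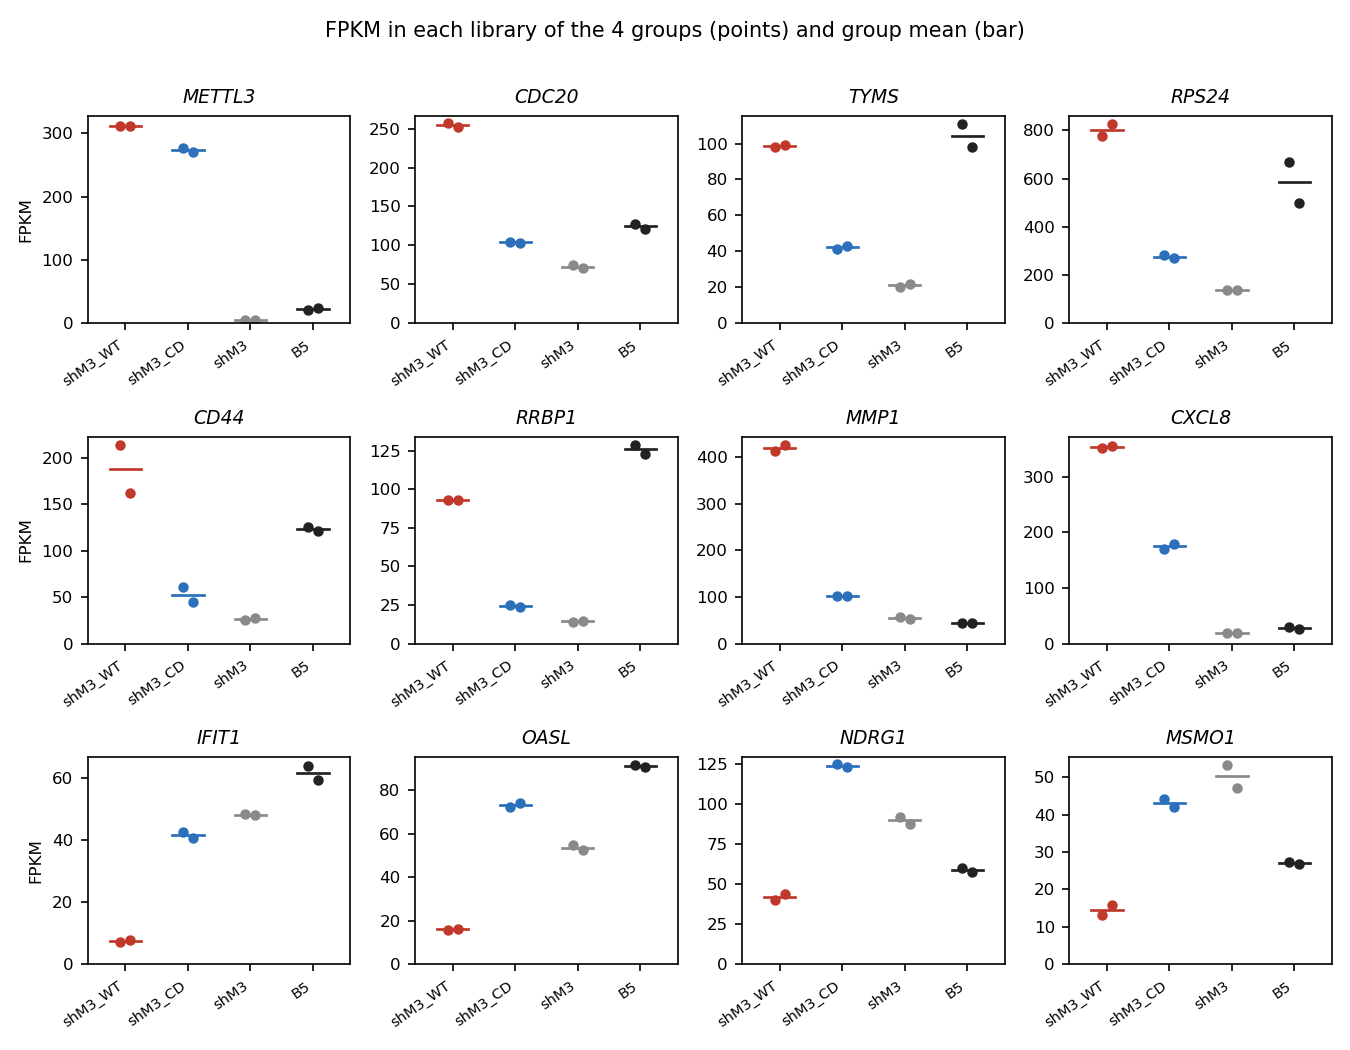
FPKM (y axis, from 0) of 12 genes in each library (points) of the 4 groups, with the group mean as a bar. CDC20 and TYMS are higher in shM3_WT than in shM3_CD, RPS24, CD44 and RRBP1 are lowest in shM3 and shM3_CD, and IFIT1 and OASL stand low in shM3_WT while the other groups lie above 40 FPKM.

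Interferon-stimulated genes were lower in shM3_WT than in shM3_CD, and for the strongest of them also lower than in shM3 and B5. Of 62 tested effectors 39 fell and none rose as deposited, with a median of -0.64, while with TMM factors 38 fell and 1 rose. Without 1 of the 4 add-back libraries 31 to 32 fell. IFIT1, at chromosome 10, 89392546 to 89406486, plus strand, encodes a protein that binds RNA lacking cap methylation, and it had 7.14 and 7.71 FPKM in shM3_WT, against 42.7 and 40.5 FPKM in shM3_CD. In the cells without add-back it had 48.4 and 47.9 FPKM in shM3 and 63.9 and 59.4 FPKM in B5, so it was lowest in shM3_WT. The difference was 5.60-fold (log2 fold change -2.34 ± 0.08 SE, limma adjusted p = 5.7e-05). IFIT2, of the same gene cluster, had 11.3 and 12.7 FPKM in shM3_WT, against 52.8 and 54.2 FPKM in shM3_CD. IFIT3 had 27.2 and 26.8 FPKM in shM3_WT, against 97.7 and 103 FPKM in shM3_CD, and was highest in B5 with 159.8 and 154 FPKM.

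OASL, which enhances RNA sensing by RIG-I, had 15.6 and 16.3 FPKM in shM3_WT, against 72.3 and 74.04 FPKM in shM3_CD (log2 fold change -2.13 ± 0.07 SE, limma adjusted p = 5.7e-05). HERC5 attaches the ubiquitin-like ISG15 to newly made proteins, and had 13.2 and 12.9 FPKM in shM3_WT, against 50.9 and 50.7 FPKM in shM3_CD (log2 fold change -1.88 ± 0.07 SE, limma adjusted p = 6.1e-05). ISG15 itself was at 159 and 175 FPKM in shM3_WT, against 532 and 522 FPKM in shM3_CD, and fell by 1.65 on the log2 scale (limma adjusted p = 0.00039). OAS1, an RNA-activated synthetase upstream of RNase L, had 2.52 and 1.64 FPKM in shM3_WT, against 8.78 and 11.1 FPKM in shM3_CD, and here shM3_CD was also below the cells without add-back, at 20.6 and 21.8 FPKM in shM3 and 23.2 and 20.5 FPKM in B5. IFITM1, which blocks viral fusion, had 34.2 and 29.6 FPKM in shM3_WT, against 80.2 and 79.5 FPKM in shM3_CD (log2 fold change -1.303 ± 0.08 SE, limma adjusted p = 0.00039), and the helicase DDX60 fell by 1.39 (limma adjusted p = 0.00058). CMPK2 was below the filter.

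The sensors and transducers upstream fell in part. Of 29 tested 8 fell and 2 rose, with 5 to 7 falling and 0 to 1 rising without 1 add-back library. DDX58, which encodes the RNA sensor RIG-I, had 16.9 and 16.3 FPKM in shM3_WT, against 38.6 and 36.3 FPKM in shM3_CD (log2 fold change -1.13 ± 0.08 SE, limma adjusted p = 0.00047), beside 53.7 and 56.4 FPKM in shM3 and 54.1 and 57.2 FPKM in B5. IFIH1 (MDA5), the sensor of long double-stranded RNA, had 2.57 and 3.01 FPKM in shM3_WT, against 9.51 and 8.196 FPKM in shM3_CD, and B5 stood far above both with 28.7 and 38.04 FPKM. STAT2, a subunit of the factor that binds the element shown above, had 7.41 and 7.44 FPKM in shM3_WT, against 15.4 and 16.6 FPKM in shM3_CD (log2 fold change -1.01 ± 0.09 SE, limma adjusted p = 0.0011). STING1, the adaptor of cytosolic DNA sensing, fell (-1.32, limma adjusted p = 0.0071). The DNA sensor gene CGAS was called the other way (0.63, limma adjusted p = 0.017), a call lost when shM3_WT replicate 1 or shM3_CD replicate 1 was left out. Of the interferon genes only IFNL1 passed the filter, with 0 and 0.0669 FPKM in shM3_WT, against 0.495 and 0.3703 FPKM in shM3_CD, and did not pass the test (limma adjusted p = 0.16). It reached 1 FPKM only in cells without add-back, with 1.29 and 2.02 FPKM in shM3 and 0.807 and 1.55 FPKM in B5. The other 21 ligand genes stayed under the filter, 20 of them listed at 0 in all 8 libraries.

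Class II genes, which present peptides to helper T cells, rose for 6 of 16 members and fell for none, with 2 rising when 1 add-back library was left out. HLA-DRA had 148 and 152 FPKM in shM3_WT, against 110.4 and 101 FPKM in shM3_CD (log2 fold change 0.498 ± 0.08 SE, limma adjusted p = 0.0059), and both groups stood between the levels without add-back, 16.97 and 18.1 FPKM in shM3 and 225 and 207 FPKM in B5. CD74, the invariant chain, had 302 and 297 FPKM in shM3_WT, against 227 and 228 FPKM in shM3_CD, and its call was lost when shM3_WT replicate 1 or shM3_CD replicate 1 or shM3_CD replicate 2 was left out. Reads of HLA-DRB1 and its copies can be shared, so their levels are uncertain. Of 19 class I and peptide loading genes 4 rose and 1 fell, 1 to 3 and 0 to 1 without 1 add-back library. CALR, a chaperone of the peptide loading complex, rose (0.62, limma adjusted p = 0.0025), and B2M, the light chain, fell (-0.41, limma adjusted p = 0.0067), a call lost when shM3_CD replicate 2 was left out. IDO1, an enzyme that degrades tryptophan and is interferon-inducible, had 1.91 and 1.86 FPKM in shM3_WT, against 8.26 and 7.45 FPKM in shM3_CD (log2 fold change -1.62 ± 0.16 SE, limma adjusted p = 0.0014). Of the 14 immune checkpoint genes tested, IDO1 among them, 2 rose and 2 fell, near the shares of all genes.

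**Figure D3:**
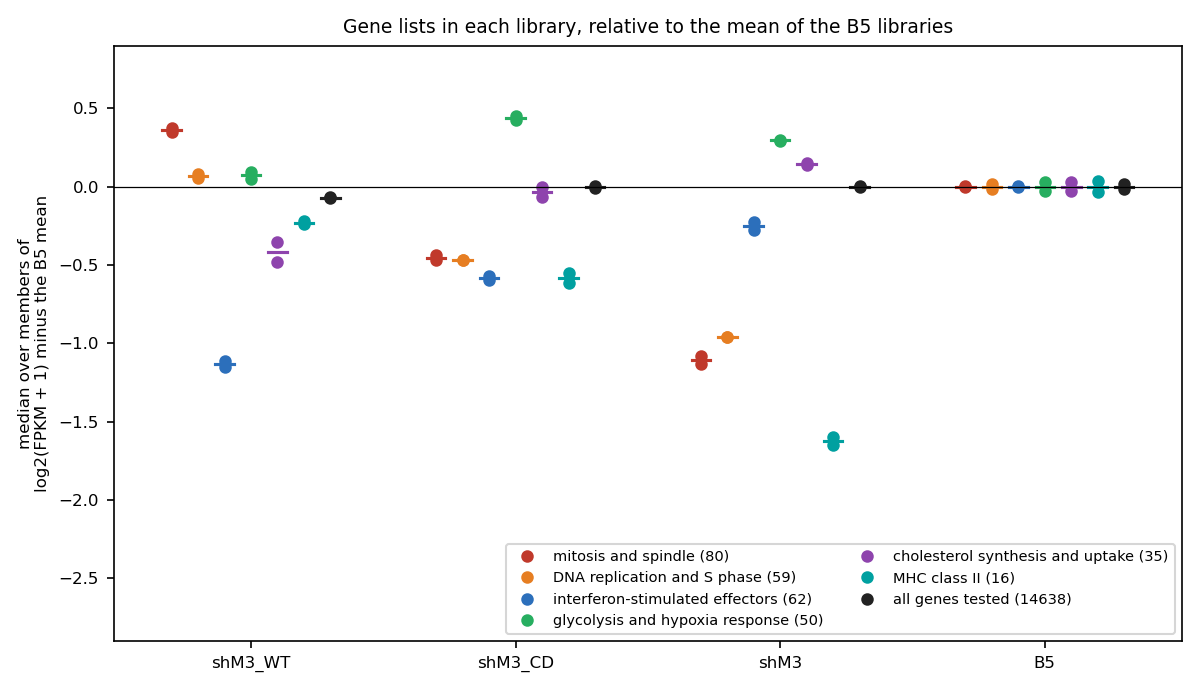
Median over list members of log2(FPKM + 1) minus the mean of the B5 libraries (y axis), for 6 gene lists and all genes tested, in each library (points) of the 4 groups, with bars at the group mean. Mitosis is above B5 in shM3_WT and below it in shM3_CD and shM3, interferon effectors are lowest in shM3_WT, and class II genes are lowest in shM3.

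Secreted inflammatory factors included genes higher and genes lower in shM3_WT. CXCL8, the neutrophil chemokine, had 351 and 355 FPKM in shM3_WT, against 170.0 and 179.6 FPKM in shM3_CD, beside 19.6 and 19.3 FPKM in shM3 and 30.5 and 27.1 FPKM in B5. Both add-back groups were thus above both groups without add-back, with shM3_WT the higher (log2 fold change 1.01 ± 0.08 SE, limma adjusted p = 0.00069). CXCL3 had 33.7 and 28.2 FPKM in shM3_WT, against 14.9 and 13.2 FPKM in shM3_CD (log2 fold change 1.08 ± 0.14 SE, limma adjusted p = 0.0025). CSF2, the growth factor of granulocytes and macrophages, had 118 and 114 FPKM in shM3_WT, against 43.96 and 39.9 FPKM in shM3_CD, and IL11, a cytokine of the gp130 family, had 154 and 150.5 FPKM in shM3_WT, against 49.3 and 47.5 FPKM in shM3_CD. They rose by 1.44 and 1.63 (limma adjusted p = 0.0046 and 0.0014). IL6 was lower in shM3_WT, with 53.6 and 54.6 FPKM in shM3_WT, against 83.2 and 104 FPKM in shM3_CD (log2 fold change -0.77 ± 0.13 SE, limma adjusted p = 0.0063), though both were above the 28.8 and 34.8 FPKM of B5. CXCL10, an interferon-inducible T cell attractant, had 1.71 and 2.11 FPKM in shM3_WT, against 7.47 and 7.62 FPKM in shM3_CD (log2 fold change -1.56 ± 0.12 SE, limma adjusted p = 0.00061). Over the lists, 2 of 16 cytokine genes rose and 3 fell, near the shares of all genes. Of 12 chemokine genes 3 rose and 4 fell. The falls numbered 1 to 2 among cytokines and 1 to 2 among chemokines without 1 add-back library, and 2 in each list with TMM factors.

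Of complement genes the strongest change was in CFB, factor B of the alternative pathway, which had 25.3 and 24.4 FPKM in shM3_WT, against 83.7 and 86.8 FPKM in shM3_CD, beside 17.00 and 18.2 FPKM in shM3 and 44.4 and 46.8 FPKM in B5, shM3_CD being the highest group (log2 fold change -1.74 ± 0.08 SE, limma adjusted p = 0.00012). C3, the central complement component, had 45.5 and 41.5 FPKM in shM3_WT, against 77.4 and 75.7 FPKM in shM3_CD (log2 fold change -0.803 ± 0.10 SE, limma adjusted p = 0.0022), beside 3.05 and 3.59 FPKM in shM3 and 11.3 and 10.6 FPKM in B5. SOD2, the mitochondrial superoxide dismutase induced by NF-kB, had 52.03 and 33.7 FPKM in shM3_WT, against 240.1 and 160.4 FPKM in shM3_CD, the replicates of each add-back group being far apart, and fell by 2.201 on the log2 scale (limma adjusted p = 0.0028). It overlaps WTAP on the opposite strand and, on its own strand, another entry named SOD2. Reads may have been divided between these entries, so the level of SOD2 and the size of its fall are uncertain. PTX3, an acute-phase pattern receptor, rose (1.09, limma adjusted p = 0.00039). Of 18 complement and acute phase genes 4 fell and 1 rose, and of 27 NF-kB subunits and feedback genes 5 fell and 5 rose. Of the NF-kB genes, 2 to 3 fell and 0 to 1 rose without 1 add-back library.

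Hypoxia-inducible and glycolytic genes were lower in shM3_WT. Of 50 tested 27 fell and 1 rose, 22 and 1 with TMM factors, and 16 to 21 fell without 1 of the 4 add-back libraries. NDRG1, a stress gene induced by HIF, had 39.96 and 43.9 FPKM in shM3_WT, against 125 and 123 FPKM in shM3_CD (log2 fold change -1.54 ± 0.07 SE, limma adjusted p = 0.00015), beside 91.6 and 87.7 FPKM in shM3 and 59.8 and 57.7 FPKM in B5. Here shM3_CD was the highest group and shM3_WT the lowest. DDIT4 (REDD1), an inhibitor of mTORC1, had 49.6 and 49.98 FPKM in shM3_WT, against 143 and 143 FPKM in shM3_CD (log2 fold change -1.501 ± 0.07 SE, limma adjusted p = 0.00012). PFKFB4, which sets the level of the glycolytic activator fructose bisphosphate, and the hexose transporter SLC2A3 fell, with log2 fold changes of -1.498 and -1.07 (limma adjusted p = 0.00033 and 0.0013). The mitophagy receptor BNIP3 had 92.9 and 94.1 FPKM in shM3_WT, against 146 and 149 FPKM in shM3_CD, and both groups were above the 51.9 and 47.7 FPKM of B5. The glucose transporter SLC2A1 was the member that rose (0.27, limma adjusted p = 0.036), and its call was lost without the filter and without any 1 of the 4 add-back libraries.

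Cholesterol genes were lower in shM3_WT. Of 35 tested 18 fell and 2 rose (14 and 3 with TMM factors), and 7 to 11 fell without 1 add-back library. MSMO1, a sterol oxidase of the pathway, had 13.1 and 15.7 FPKM in shM3_WT, against 44.1 and 42.1 FPKM in shM3_CD, beside 53.4 and 47.1 FPKM in shM3 and 27.4 and 26.9 FPKM in B5 (log2 fold change -1.52 ± 0.11 SE, limma adjusted p = 0.00050). INSIG1, which retains the SREBP activator in the endoplasmic reticulum, had 7.39 and 9.09 FPKM in shM3_WT, against 15.5 and 16.9 FPKM in shM3_CD (log2 fold change -0.901 ± 0.11 SE, limma adjusted p = 0.0023). SREBF2, the master factor of the pathway, had 19.8 and 20.1 FPKM in shM3_WT, against 29.97 and 29.1 FPKM in shM3_CD (log2 fold change -0.54 ± 0.07 SE, limma adjusted p = 0.0029). SCD, the desaturase that makes oleate, had 20.7 and 18.7 FPKM in shM3_WT, against 50.9 and 49.8 FPKM in shM3_CD, beside 56.9 and 58.1 FPKM in shM3 and 82.3 and 86.3 FPKM in B5. Of 22 fatty acid genes 5 fell and none rose, and 3 to 4 fell without 1 add-back library.

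Lysosomal and autophagy genes fell for 23 of 65 members and rose for 4, but with TMM factors for 16 and 8, and without 1 add-back library 10 to 14 fell. GABARAPL1, which tethers cargo to autophagosomes, had 6.79 and 7.83 FPKM in shM3_WT, against 20.2 and 19.7 FPKM in shM3_CD (log2 fold change -1.34 ± 0.10 SE, limma adjusted p = 0.00052), and the kinase ULK1, which starts autophagy, had 7.14 and 5.66 FPKM in shM3_WT, against 15.8 and 18.8 FPKM in shM3_CD (log2 fold change -1.31 ± 0.14 SE, limma adjusted p = 0.0016).

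Genes that build ribosomes and proteasomes rose in part. Of 59 ribosome biogenesis genes 22 rose and 2 fell, with 11 to 14 rising and 0 to 1 falling without 1 add-back library. TCOF1, the nucleolar factor of ribosomal DNA transcription, had 41.4 and 37.9 FPKM in shM3_WT, against 17.9 and 16.9 FPKM in shM3_CD (log2 fold change 1.14 ± 0.10 SE, limma adjusted p = 0.00089), and LYAR, another nucleolar protein, rose by 0.93 (limma adjusted p = 0.0012). Of 32 proteasome genes 16 rose, none fell, and 7 to 10 rose without 1 add-back library. PSMC3, an ATPase of the regulatory particle, had 208 and 188 FPKM in shM3_WT, against 118 and 99.9 FPKM in shM3_CD (log2 fold change 0.86 ± 0.12 SE, limma adjusted p = 0.0036). Among MYC targets ODC1, the first enzyme of polyamine synthesis, had 175 and 177 FPKM in shM3_WT, against 88.4 and 83.7 FPKM in shM3_CD, beside 86.9 and 83.6 FPKM in shM3 and 51.8 and 44.3 FPKM in B5. TFRC, the transferrin receptor, had 82.1 and 68.9 FPKM in shM3_WT, against 30.9 and 32.3 FPKM in shM3_CD (log2 fold change 1.22 ± 0.11 SE, limma adjusted p = 0.0011). The MYC antagonists MXD4 and MNT fell (-0.75 and -0.77, limma adjusted p = 0.0018 and 0.0051). The MYC list had 11 rises and 3 falls among 32 genes, 6 to 8 and 2 to 4 without 1 add-back library.

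Of 42 genes of ATF4 and the unfolded protein response 12 rose and 6 fell. HYOU1, a chaperone of the reticulum, had 172 and 175 FPKM in shM3_WT, against 92.7 and 91.6 FPKM in shM3_CD (log2 fold change 0.904 ± 0.08 SE, limma adjusted p = 0.00088), and the disulphide isomerase gene PDIA4 had 130.0 and 128 FPKM in shM3_WT, against 74.3 and 70.3 FPKM in shM3_CD (log2 fold change 0.83 ± 0.07 SE, limma adjusted p = 0.00088). GDF15, a secreted stress hormone, had 3.18 and 3.397 FPKM in shM3_WT, against 13.7 and 14.4 FPKM in shM3_CD, while B5 cells had 87.8 and 92.5 FPKM, above every other group (log2 fold change -1.82 ± 0.08 SE, limma adjusted p = 0.00012). CHAC1, a glutathione-degrading ATF4 target, had 2.81 and 3.27 FPKM in shM3_WT, against 5.95 and 8.12 FPKM in shM3_CD, and shM3 cells had 22.98 and 23.6 FPKM.

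Of 79 cytosolic ribosomal protein genes 12 rose and none fell, and 2 to 7 rose and 0 to 3 fell without 1 add-back library. RPS24, of the small subunit, had 778 and 826 FPKM in shM3_WT, against 282 and 271 FPKM in shM3_CD (log2 fold change 1.53 ± 0.13 SE, limma adjusted p = 0.00087), and 139 and 137 FPKM in shM3 and 671 and 499 FPKM in B5. The next member by adjusted p, RPL14, had 109.8 and 100.5 FPKM in shM3_WT, against 66.7 and 66.5 FPKM in shM3_CD. Reads of ribosomal protein genes can be shared with their many processed pseudogenes, so these levels are uncertain. Nuclear genes of oxidative phosphorylation numbered 3 higher and 4 lower of 77, 9 and 0 with TMM factors and 1 to 5 and 0 to 4 without 1 add-back library. Of the 13 genes of the mitochondrial genome 12 had fold changes below 0, and the median was -0.44. MT-ATP6, a subunit of ATP synthase, rose (log2 fold change 1.65 ± 0.16 SE, limma adjusted p = 0.0011). It had 1997 and 2441 FPKM in shM3_WT, against 673 and 732 FPKM in shM3_CD. The level was lowest in shM3_CD, beside 3109 and 2870.0 FPKM in shM3 and 3226 and 2432 FPKM in B5. Reads may have been divided between MT-ATP6 and MT-ATP8, so the levels of both are uncertain. MT-ATP8, which overlaps MT-ATP6 on the same strand, had 2029.5 and 2091 FPKM in shM3_WT, against 2689.8 and 2912 FPKM in shM3_CD, the opposite order, which did not pass (limma adjusted p = 0.11) but did in a fit of the 2 groups alone, without B5 replicate 1 and without B5 replicate 2 (limma adjusted p down to 0.00683). MT-CO3, encoded next to it, fell (-0.71, limma adjusted p = 0.010), one of 5 falls in this list, against 0 to 1 without 1 add-back library and 1 with TMM factors.

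CD44, the hyaluronan receptor, at chromosome 11, 35138870 to 35232402, plus strand, had 213 and 162 FPKM in shM3_WT, against 60.98 and 44.6 FPKM in shM3_CD (log2 fold change 1.81 ± 0.17 SE, limma adjusted p = 0.0012), beside 25.7 and 27.8 FPKM in shM3 and 125 and 121 FPKM in B5. VIM, the intermediate filament vimentin, had 1183 and 1121 FPKM in shM3_WT, against 661 and 549 FPKM in shM3_CD (log2 fold change 0.93 ± 0.10 SE, limma adjusted p = 0.0016). MMP1, the collagenase that cleaves fibrillar collagen, had 414 and 425 FPKM in shM3_WT, against 102 and 102 FPKM in shM3_CD (log2 fold change 2.03 ± 0.07 SE, limma adjusted p = 5.7e-05), beside 56.9 and 52.4 FPKM in shM3 and 44.5 and 44.01 FPKM in B5. ADAMTS1, a protease of proteoglycans, had 23.3 and 23.2 FPKM in shM3_WT, against 6.05 and 5.596 FPKM in shM3_CD (log2 fold change 1.83 ± 0.08 SE, limma adjusted p = 0.00013). THBS1, the matrix protein thrombospondin, had 177 and 175 FPKM in shM3_WT, against 54.8 and 77.6 FPKM in shM3_CD, beside 33.5 and 36.9 FPKM in shM3. TIMP2, an inhibitor of matrix proteases, passed (limma adjusted p = 0.024) with 108 and 97.3 FPKM in shM3_WT, against 25.4 and 25.2 FPKM in shM3_CD, but the replicates of the other groups were far apart (30.9 and 79.3 FPKM in shM3 and 79.2 and 179 FPKM in B5), and the call was lost without the filter and without any 1 of the 4 add-back libraries.

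Genes lower in shM3_WT in this group included TGM2, a transglutaminase that crosslinks matrix, with 123 and 120.0 FPKM in shM3_WT, against 228 and 229 FPKM in shM3_CD (log2 fold change -0.91 ± 0.07 SE, limma adjusted p = 0.00063), and ITGA5, the fibronectin receptor chain, with 66.7 and 64.8 FPKM in shM3_WT, against 98.6 and 101 FPKM in shM3_CD (log2 fold change -0.59 ± 0.07 SE, limma adjusted p = 0.0023). SNAI2, which encodes the transcription factor SLUG, had 11.8 and 11.3 FPKM in shM3_WT, against 21.7 and 25.5 FPKM in shM3_CD (log2 fold change -0.97 ± 0.12 SE, limma adjusted p = 0.0027), and the epithelial keratin KRT19 had 228 and 218 FPKM in shM3_WT, against 328 and 339 FPKM in shM3_CD (log2 fold change -0.58 ± 0.07 SE, limma adjusted p = 0.0027). Over the lists the counts were 6 higher and 7 lower of 40 matrix and integrin genes (5 and 3 to 5 without 1 add-back library), near the shares of all genes, 8 and 7 of 30 matrix proteases and inhibitors (5 to 7 and 4 to 5), and 4 and 8 of 27 genes of the epithelial to mesenchymal transition.

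EPHA2, an ephrin receptor abundant in basal breast cancer, had 148 and 154 FPKM in shM3_WT, against 58.4 and 55.8 FPKM in shM3_CD (log2 fold change 1.39 ± 0.09 SE, limma adjusted p = 0.00039), with 61.7 and 65.1 FPKM in shM3 and 188 and 219 FPKM in B5. The AP-1 subunit FOSL1, a driver of invasive programmes, had 147 and 159 FPKM in shM3_WT, against 61.1 and 57.2 FPKM in shM3_CD (log2 fold change 1.35 ± 0.11 SE, limma adjusted p = 0.00071), while JUND, which forms AP-1 with it, had 82.03 and 68.7 FPKM in shM3_WT, against 170.0 and 162 FPKM in shM3_CD (log2 fold change -1.13 ± 0.12 SE, limma adjusted p = 0.0016). DUSP1, the phosphatase that shuts off MAP kinases, had 21.4 and 19.1 FPKM in shM3_WT, against 53.2 and 49.7 FPKM in shM3_CD, beside 77.4 and 72.2 FPKM in shM3 and 16.3 and 17.5 FPKM in B5. The counts were 11 higher and 7 lower of 35 receptor and ERK feedback genes, with 4 to 5 and 4 without 1 add-back library, and 2 and 4 of 23 AP-1 and immediate early genes (2 and 2 to 3 without 1 add-back library), near the shares of all genes. Among death regulators BBC3, which encodes the BH3-only protein PUMA, had 4.32 and 3.46 FPKM in shM3_WT, against 11.6 and 10.9 FPKM in shM3_CD (log2 fold change -1.33 ± 0.12 SE, limma adjusted p = 0.0011), and BCL2L1, which encodes the survival protein BCL-XL, had 117 and 116 FPKM in shM3_WT, against 205 and 201 FPKM in shM3_CD (log2 fold change -0.797 ± 0.14 SE, limma adjusted p = 0.0074). In all 6 of 17 genes of the BCL2 family fell and 2 rose. Of 27 p53 targets 5 fell and 4 rose, near the shares of all genes. The falls numbered 4 to 5 in the BCL2 family and 3 to 4 among p53 targets, and the rises 1 to 2 and 1 to 2, without 1 add-back library. Of 38 NRF2, glutathione and iron genes 12 fell and 5 rose, with 4 to 5 falling without 1 add-back library. FTL, the ferritin light chain, had 1187 and 1118 FPKM in shM3_WT, against 737 and 694 FPKM in shM3_CD and was lowest in shM3_CD, beside 1341 and 1307 FPKM in shM3 and 1896 and 1554 FPKM in B5. FTL has many processed copies, so its level is uncertain.

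Of 14 m6A readers and erasers 1 rose and 2 fell, near the shares of all genes. YTHDC1, the nuclear reader, had 21.4 and 18.7 FPKM in shM3_WT, against 33.8 and 36.4 FPKM in shM3_CD and fell (log2 fold change -0.78 ± 0.14 SE, limma adjusted p = 0.0085), a call lost when shM3_WT replicate 2 or shM3_CD replicate 2 was left out. The eraser gene FTO had 3.38 and 2.36 FPKM in shM3_WT, against 6.26 and 3.95 FPKM in shM3_CD (limma adjusted p = 0.089). The other eraser, ALKBH5, had 41.6 and 37.9 FPKM in shM3_WT, against 46.1 and 46.8 FPKM in shM3_CD (limma adjusted p = 0.20). RBMX, which binds RNA opened by m6A, had 92.3 and 62.3 FPKM in shM3_WT, against 44.3 and 37.4 FPKM in shM3_CD, a call (limma adjusted p = 0.012) lost when shM3_CD replicate 2 was left out. Splicing regulators had 17 rises and 7 falls among 50, 21 and 1 with TMM factors, and 7 to 10 rises and 0 to 2 falls without 1 add-back library. SRSF4, a serine- and arginine-rich splicing factor, had 25.7 and 25.9 FPKM in shM3_WT, against 16.2 and 11.1 FPKM in shM3_CD (log2 fold change 0.89 ± 0.16 SE, limma adjusted p = 0.0081). Of 56 genes of RNA polymerase II, P-TEFb and BET proteins 4 rose and 6 fell, 7 and 1 with TMM factors and 2 to 3 and 1 to 2 without 1 add-back library. HEXIM1, the inhibitor of P-TEFb, had 25.1 and 28.7 FPKM in shM3_WT, against 41.2 and 46.1 FPKM in shM3_CD, beside 47.2 and 44.7 FPKM in shM3 and 41.5 and 44.2 FPKM in B5 (log2 fold change -0.68 ± 0.10 SE, limma adjusted p = 0.0039). CNOT8, a deadenylase subunit that starts mRNA decay, had 16.5 and 15.2 FPKM in shM3_WT, against 29.3 and 32.6 FPKM in shM3_CD (log2 fold change -0.92 ± 0.10 SE, limma adjusted p = 0.0017). Of 41 mRNA decay genes 1 rose and 5 fell, the falls near the share of all genes. With TMM factors 7 rose and 4 fell, beside 2005 and 1525 of all 14638 genes.

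Largest changes are here those of called genes with no overlap of libraries and a mean of 5 FPKM or more in the higher group. They lay partly outside these lists. Over all genes tested log2 fold changes ran from -4.33 to 4.65. MPZL1, a cell surface glycoprotein, had 32.6 and 43.7 FPKM in shM3_WT, against 7.29 and 5.49 FPKM in shM3_CD (log2 fold change 2.402 ± 0.27 SE, limma adjusted p = 0.0018), and RRBP1, which binds ribosomes to the endoplasmic reticulum, had 93.1 and 93.1 FPKM in shM3_WT, against 25.2 and 23.7 FPKM in shM3_CD (log2 fold change 1.89 ± 0.07 SE, limma adjusted p = 6.2e-05). RRBP1 had 14.1 and 14.9 FPKM in shM3 and 129 and 123 FPKM in B5, so it was low in shM3_CD and shM3 and high in shM3_WT and B5. SCML1, ZNF511 and DCTN6, a dynactin subunit, were likewise low in both. SCML1 had 9.06 and 10.01 FPKM in shM3_WT, against 1.83 and 1.97 FPKM in shM3_CD, beside 2.795 and 3.09 FPKM in shM3 and 8.12 and 9.25 FPKM in B5. ZNF511 had 38.9 and 38.02 FPKM in shM3_WT, against 8.69 and 11.4 FPKM in shM3_CD, beside 5.35 and 6.33 FPKM in shM3 and 42.2 and 30.5 FPKM in B5. Levels of DCTN6 were 25.5 and 19.8 FPKM in shM3_WT, against 6.13 and 6.09 FPKM in shM3_CD, beside 3.65 and 4.37 FPKM in shM3 and 25.3 and 28.6 FPKM in B5. TFF1, the trefoil peptide of oestrogen-responsive epithelium, had 49.4 and 50.2 FPKM in shM3_WT, against 10.1 and 10.4 FPKM in shM3_CD, beside 5.13 and 5.61 FPKM in shM3 and 8.32 and 10.6 FPKM in B5, and was highest in shM3_WT. PHF19, a Polycomb cofactor, and PTP4A1, a phosphatase of growing cells, rose by 1.84 and 1.701 (limma adjusted p = 0.00014 and 0.00022).

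Among the deepest falls IGFBP6, which sequesters IGF2, had 43.5 and 47.6 FPKM in shM3_WT, against 185 and 184 FPKM in shM3_CD, beside 385 and 392.1 FPKM in shM3 and 423 and 459 FPKM in B5, so that shM3_WT and shM3_CD were both below the cells without add-back (log2 fold change -1.997 ± 0.08 SE, limma adjusted p = 6.1e-05). S100P, a calcium-binding protein, had 1.95 and 1.802 FPKM in shM3_WT, against 8.74 and 8.99 FPKM in shM3_CD, and LBH, a transcription cofactor, had 3.06 and 4.33 FPKM in shM3_WT, against 13.8 and 15.6 FPKM in shM3_CD. They fell, with log2 fold changes of -1.78 and -1.75 (limma adjusted p = 0.00045 and 0.00080). TGFB2-OT1, a noncoding RNA annotated within TGFB2 on the same strand, had 0.199 and 0.147 FPKM in shM3_WT, against 21.6 and 23.7 FPKM in shM3_CD, and SNX22 had 0.0459 and 0.203 FPKM in shM3_WT, against 7.92 and 8.45 FPKM in shM3_CD. In shM3 the libraries disagreed, with 0.212 and 16.5 FPKM of TGFB2-OT1 and 7.09 and 0.0736 FPKM of SNX22, and both calls were lost without the filter and without any 1 of the 4 add-back libraries. AC004922.1, which overlaps ARPC1A and ARPC1B on the same strand, had 0.1103 and 0.522 FPKM in shM3_WT, against 17.6 and 16.4 FPKM in shM3_CD, beside 3.53 and 6.36 FPKM in shM3 and 2.24 and 0.343 FPKM in B5. Of the 30 genes so chosen as the largest changes 18 overlap another annotated gene, 12 of them on the same strand. Reads of such pairs may have been divided between them. The share of all genes tested that overlap another was not counted, so overlap is not read as a trait of the largest changes.

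**Figure D4:**
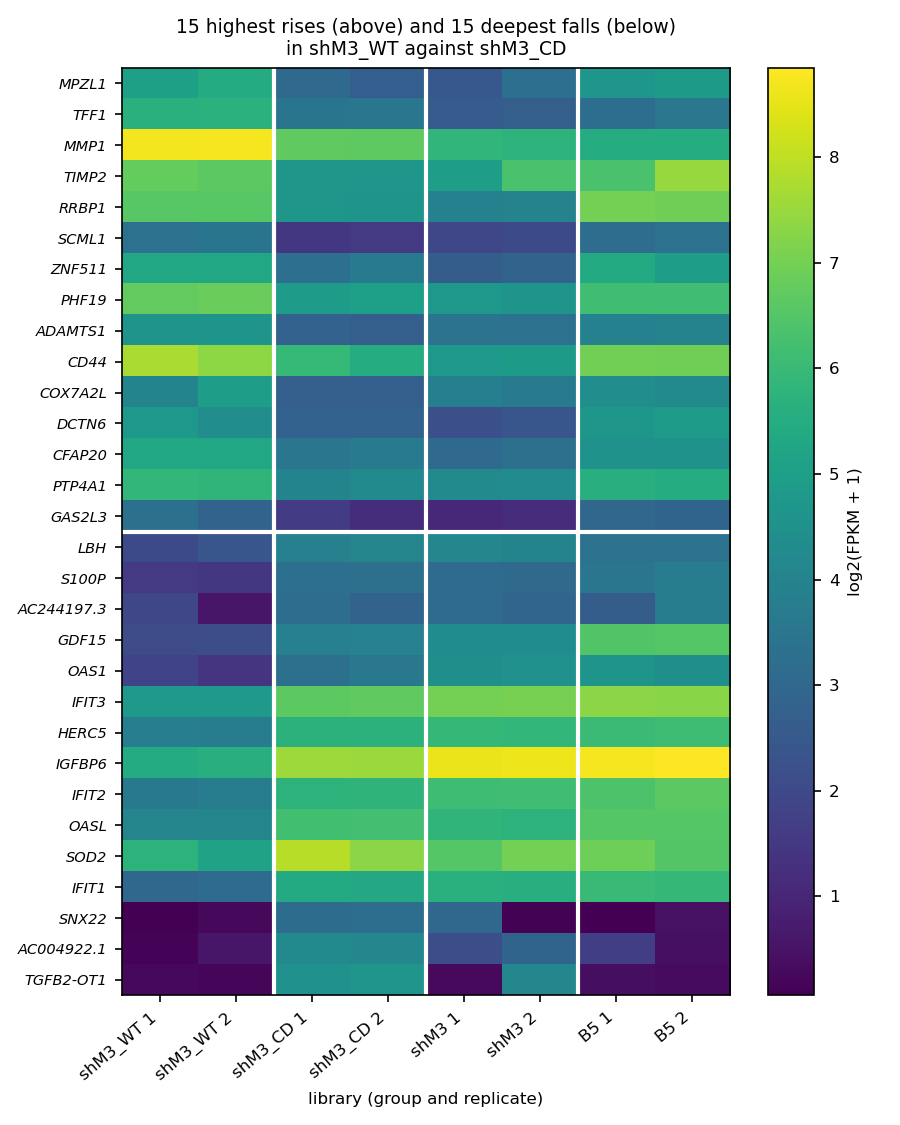
Level as log2(FPKM + 1) (colour) of the 15 highest rises (above the white line) and 15 deepest falls (below it) between shM3_WT and shM3_CD, by library (x axis) of the 4 groups. These were chosen among called genes with no overlap of libraries and a mean of 5 FPKM or more in the higher group. RRBP1, ZNF511 and CD44 are low in both shM3_CD and shM3, MMP1 and TFF1 are highest in shM3_WT, and IFIT1, OASL and HERC5 are low in shM3_WT alone.

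The add-back difference was then set beside the knockdown difference, shM3 against B5, which shares no library with it. In the knockdown 5534 genes passed (37.8%), 2620 higher (17.9%) and 2914 lower (19.9%), and 3654 and 3683 passed without shM3 replicate 1 and without shM3 replicate 2. Of the 1494 genes higher in shM3_WT, 913 (61.1%, and 31.3% of the knockdown's falls) were lower in shM3 than in B5, and 88 were higher. Of the 2291 genes lower in shM3_WT, 915 (39.9%, and 34.9% of the knockdown's rises) were higher in shM3, and 262 were lower. Over all 14638 genes the 2 fold changes had r = -0.38, and -0.56 over the 3785 genes called. These are correlations across genes, which are not independent replicates, and the 4 groups share 1 fit. By list, 75 of 80 mitosis genes and 52 of 59 S phase genes were lower in shM3 than in B5, and 67 and 44 of them were both lower there and higher in shM3_WT. Of the 39 interferon effectors that fell in shM3_WT, 16 were also lower in shM3 and 7 higher.

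**Figure D5:**
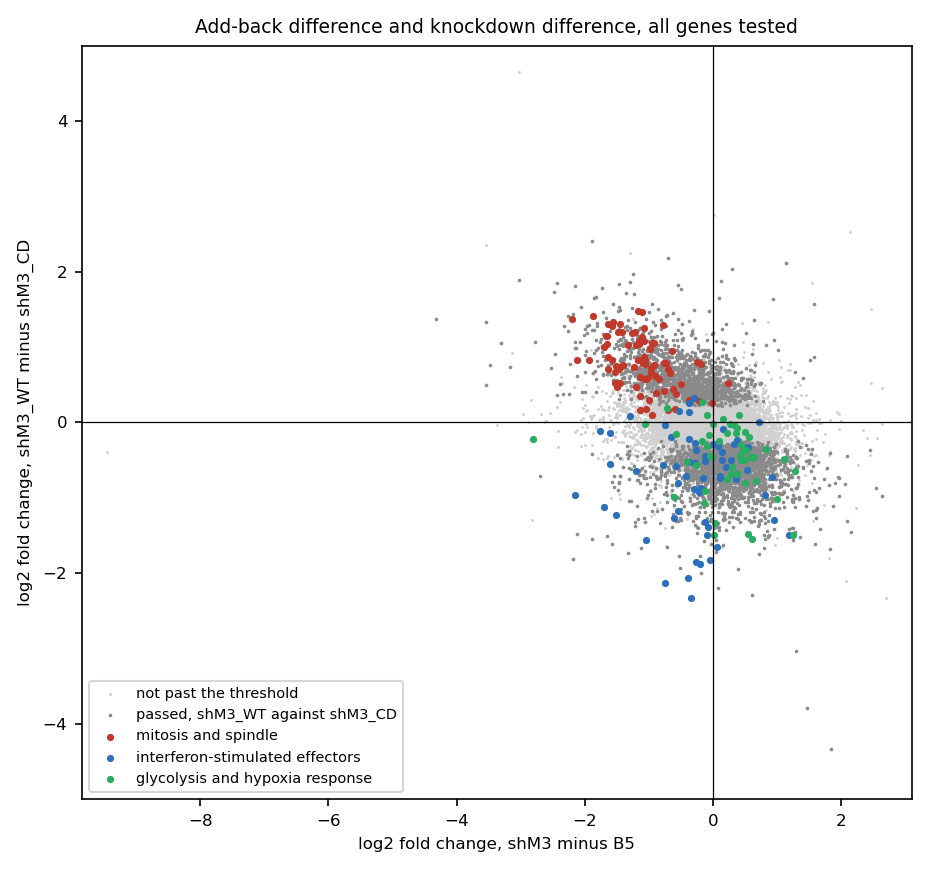
Log2 fold change of FPKM + 1 of each of 14638 genes in shM3 minus B5 (x axis) and in shM3_WT minus shM3_CD (y axis), with members of 3 lists in colour, other genes past the threshold in dark grey and the rest in light grey. Most mitosis genes lie at upper left, lower in shM3 and higher in shM3_WT, while interferon effectors lie low on the y axis on both sides of 0 on the x axis.

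Neither add-back group was simply the nearer to B5. Of the 1494 genes higher in shM3_WT, the shM3_WT mean was nearer to B5 for 823 and the shM3_CD mean for 671, and the shM3_WT mean was above those of all 3 other groups for 1086 (72.7%) and the shM3_CD mean below them for 397 (26.6%). Relative to B5 these genes had median log2 differences of 0.25 in shM3_WT, -0.38 in shM3_CD and -0.49 in shM3. Of the 2291 genes lower in shM3_WT, shM3_WT was nearer for 1067 and shM3_CD for 1224, and shM3_WT was the lowest of the 4 groups for 1763 (77.0%) and shM3_CD the highest for 882 (38.5%). Choosing genes by the add-back difference favours such extremes, so these shares are a description. Among called members shM3_WT was the nearer to B5 for 40 of 46 S phase genes, 38 of 69 mitosis genes and 23 of 28 glycolysis and hypoxia genes. For interferon effectors shM3_CD was the nearer in 37 of 39.

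Protein-coding genes made up 12044 of those tested, of which 1384 rose and 2032 fell, and of 1753 lncRNAs 78 rose and 184 fell. Among the protein-coding genes with a matched transcript, the median transcript length was 3247 bases for genes that rose, 3754 for genes that fell and 3672 for those not called. The pentamer GGACT, a core of the m6A consensus, stood at a median of 0.919, 0.975 and 0.915 per kb in the same 3 classes. Its density had a rank correlation of -0.035 with the fold change over 12022 genes, and the mean level one of 0.132. The files hold no m6A measurement.

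In the promoters of all 27305 genes of the RefSeq table, read over 300 bases around the first listed start and on both strands, GAAA and GAAA with any 2 bases between them occurred in 3.65%, and in 2.92% of the 10103 promoters of genes tested. Shares below are given for all and then for tested genes. It occurred in 35 of the 50 interferon effectors with a promoter entry (70.0%), 22 of the 31 that were called and 13 of the 19 that were not. TTTGAA was present in 45 of 68 mitosis promoters (66.2%), against 15.4% and 9.48%, and CCAAT in 49 of 68 (72.1%), against 35.7% and 36.9%. The E2F sites TTTGGCGC and TTTCCCGC were present in 8 and 12 of 51 S phase promoters. TTTGGCGC stood in 0.659% and 1.12% and TTTCCCGC in 1.66% and 2.65%, and the 12 genes with the second form were all called, as were 39 of the 51. ACGTG, the core of the hypoxia response element, was found in 20 of 43 promoters of its list (46.5%, against 21.6% and 27.1%), and TCACNCCAC, the core of the sterol regulatory element, in 1 of 27 (against 1.15% and 1.09%). CACGTG, the E-box of MYC, which holds ACGTG, was found in 18 of 50 ribosome biogenesis promoters (36.0%, against 7.43% and 10.2%), and the NF-kB site, GGGA and TTCC with any 2 bases between them, in 5 of 9 chemokine promoters (55.6%, against 1.63% and 1.61%). Such matches describe the letters of these windows.

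Markers of the labelled cell type were present. Of 15 markers of MDA-MB-231 and basal B lines 14 passed the filter, with summed levels of 3523 and 3349 FPKM in shM3_WT and 2735 and 2655 FPKM in shM3_CD, and 5 were higher and 1 lower in shM3_WT (3 to 5 and 0 to 1 without 1 add-back library). Of 15 luminal markers 10 passed, with 391.1 and 391.6 FPKM in shM3_WT against 459.7 and 475 FPKM in shM3_CD, 1 higher and 4 lower, and ESR1, PGR, FOXA1 and CDH1 were among those under the filter. Haematopoietic markers summed to 72.3 and 77.4 FPKM in shM3_WT against 54.5 and 65.6 FPKM in shM3_CD over 6 tested of 14, 2 of them higher in shM3_WT (1 without 1 add-back library), and PTPRC was among the other 8, of which 5 were at 0 in all libraries. Fibroblast and endothelial markers summed to 9.03 and 9.20 FPKM in shM3_WT against 14.2 and 13.5 FPKM in shM3_CD over 6 tested of 14, 2 of them lower (0 to 1 without 1 add-back library). Their part in the results was not tested. Replicates of a group had r between 0.977 and 0.986 on the log2 scale. Read depth is not given in the files. In B5 replicate 2 the 10 highest genes took 95.5% of the summed FPKM, against 6.97 to 9.45% in the other 7 libraries. Its sum was 8657368 FPKM, but 423171 FPKM without its single highest gene. Without their highest gene the other 7 libraries summed to 429564 to 445068 FPKM. Among genes tested the median of B5 replicate 2 was 8.68 FPKM, against 7.81 to 8.55 FPKM in the other 7.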

How the data were processed

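RNA-seq of MDA-MB-231 cells was taken from 1 table of 8 libraries. The authors deposited its values as FPKM per gene, made from the reads with tools that include CASAVA 1.4, HISAT2 2.1.0 and Cufflinks 2.2.1 on hg38, per the submitters' processing notes. The labels' protocols describe more than 1 library preparation without saying which these libraries had, and counts were not used here, so depth is unknown and no counting interval is given. The other tables of the series were not used here.

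Genes that reached 1 FPKM in 2 or more of the 8 libraries were tested on log2(FPKM + 1), with a pseudocount of 1, in limma 3.58.1 (R 4.3.3) with 4 group means, a trended prior and Benjamini-Hochberg adjustment over all 14638 genes at 0.05. Alternatives were other pseudocounts (0.1 and 5), filters and scalings, a replicate block, the 2 groups alone, a 2-fold limit and each library left out. Gene locations matched GENCODE 29 for 14547 genes. Exact values of 0 can be failed estimates.

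The comparison and the 49 gene lists were chosen with earlier results of these data known, and samples entered it by their labels. Genes named are METTL3 and the writer subunits, the 15 highest rises and 15 deepest falls at a mean of 5 FPKM or more in the higher group with no overlap of libraries, up to 8 members of each list by adjusted p and up to 4 called against its majority. In lists of 16 or fewer any member could be named.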

Additional observations from a re-analysis of the deposited data

How the results depend on the processing

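Between shM3_WT and shM3_CD the count of 3785 genes stayed within 1.5 times under other pseudocounts, filters, scalings and the fit of the 2 groups alone. It fell to 1781 to 1955 without 1 of the 4 add-back libraries, with 742 to 838 higher and 1003 to 1117 lower, and leaving out B5 or shM3 libraries took it as high as 4003, with 1583 higher and 2420 lower. A further 2-fold limit left 450 genes, 186 higher and 264 lower. The genes lower in shM3_WT numbered 1525 with TMM factors and 1501 with equal medians, and the share of calls that were higher was 56.8% and 57.3%, against 39.5% as deposited. The median fold change of all genes moves with these scalings from -0.08 to 0.01. METTL3 had a log2 fold change of 0.30 and passed under both (limma adjusted p = 0.0496 and 0.046), and its adjusted p ran to 0.411 over the alternatives. For shM3 against B5 the count of 5534 fell to 3654 without shM3 replicate 1 and 3683 without shM3 replicate 2, with 1624 and 1622 higher, and stood at 5232, 2485 of them higher, without shM3_WT replicate 2. It fell to 1134 with a 2-fold limit, 315 higher and 819 lower. Of 126 genes named, 119 were called, and 107 of these kept the call in all 16 other fits. The 2-fold limit was not among those fits, and named genes with smaller changes would lose their call under it. METTL14, not called, turned to -0.15 without shM3_WT replicate 1. Replicate numbers did not pair the libraries: deviations of same-numbered libraries correlated between -0.031 and 0.035. The replicate block gave 3370 calls, 1352 higher, with FTO called (limma adjusted p = 0.0432) and RBM15B and SLC2A1 not. With 2 libraries a group, and fragments per gene not given, small changes of low genes were not resolved.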
